A study of Mus musculus with 8 samples.

Results

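A set of 9 genes that write, copy, read or remove the methyl mark on cytosine was followed at the transcript level in splenic CD4+ T cells. They were 9 of the 27179 genes in the deposited table: Dnmt1, Dnmt3a, Dnmt3b, Tet1, Tet2, Tet3, Uhrf1, Uhrf2 and Mbd2. Each was found by its symbol, matched 1 row, and passed the filter on low values that left 12605 genes for testing. The cells came from 8-week-old offspring of the mouse strain C.Cg-Foxp3tm2Tch/J, a congenic line in which a green fluorescent protein reporter is knocked in at Foxp3, so that controls and exposed animals both carry that allele. Parents drank water with 10 ppm cadmium (Cd) as CdCl2, or water without it, around mating and through pregnancy. CD4+ T cells were isolated from the spleen by removing the other cells, further sorted by flow cytometry (the CD25- conventional T cells, by a legend of the study), and either lysed at 0 hours (unstimulated) or cultured for 16 hours with anti-CD3/CD28 beads (stimulated). The 4 groups, control unstimulated, control stimulated, Cd unstimulated and Cd stimulated, had 2 libraries each, numbered 6 and 7 in the sample titles. The sources do not say whether libraries with the same number share an animal, so a p value measures the spread between these libraries only.

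DNA methylation in mammals sits mostly on the cytosine of CpG dinucleotides. Dnmt3a and Dnmt3b are the de novo methyltransferases, which place the mark on unmethylated DNA. Dnmt1 copies it onto the new strand after replication, and Uhrf1, which binds half-methylated CpG sites, recruits Dnmt1 to them. Uhrf2 is the paralog of Uhrf1. Tet1, Tet2 and Tet3 oxidize 5-methylcytosine, the first step of active removal, and Mbd2 binds methylated CpG and brings in the NuRD repressor complex. In T cells these enzymes are known for shaping cytokine and lineage genes as naive cells become effector cells, and a resting T cell has to re-enter the cell cycle before its methylation pattern needs copying.

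Levels are given as RPKM, reads scaled to transcript length and to library size. They allow genes to be set side by side, but each is a share of its library and not an amount per cell. Small changes between libraries can depend on the scaling, so values under other scalings are given beside some of them. The total of reads on genes was 15542732 to 25486791 per library, and the 9 genes rested on 67 to 11254 reads in a library. The lowest of these counts was that of Uhrf1 in unstimulated cells and the highest that of Dnmt3a in stimulated cells. All values are sums over the isoforms of a gene, which the table does not separate. In a bulk sample, fewer cells with a transcript and less transcript per cell cannot be told apart.

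Upstream sequences of 4 of the genes are shown because a short word of S phase promoters was found before Uhrf1 and Dnmt1 and before none of the other 6 genes searched, among them the maintenance gene Uhrf2 and the de novo genes Dnmt3a and Dnmt3b. The sequences come from RefSeq on the assembly GRCm38.p6, in which 8 of the 9 genes had a window, 13 windows in all. The 250 bases before each annotated start were searched on both strands for the E2F words TTTCCCGC, TTTCGCGC, TTTGCCGC and TTTGGCGC, and also for CCAAT and for GGGCGG, the core of the Sp1 site. E2F factors are regulators of S phase genes. An E2F word was found in 2 of the 13 windows, 1 of Uhrf1 and 1 of Dnmt1, against 1.86% of the 32851 windows of all genes. Neither overlapped a CCAAT or GGGCGG word. Each of the 4 E2F words holds a CpG, and the background share was not matched for CpG content. The windows with the word held 30 CpG for Uhrf1 and 26 for Dnmt1, against a median of 6 over all windows. In the Uhrf1 window (chr17:56304063-56304312, plus strand, before the second of its 2 annotated starts and inside no annotated exon), the word, in capitals, begins 185 bases before the start.
Uhrf1: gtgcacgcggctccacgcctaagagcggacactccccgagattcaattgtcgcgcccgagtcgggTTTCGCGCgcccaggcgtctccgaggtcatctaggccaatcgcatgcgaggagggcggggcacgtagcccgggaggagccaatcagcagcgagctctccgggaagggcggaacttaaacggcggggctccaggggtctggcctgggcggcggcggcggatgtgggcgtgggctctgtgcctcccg
In Dnmt1 the same word stands on the opposite strand, 219 bases before the last of its 3 annotated starts. The 30 bases around it (chr9:20952824-20952853, minus strand, inside an annotated exon of a longer transcript) are shown with the word in capitals.
Dnmt1: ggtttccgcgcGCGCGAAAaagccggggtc
The first windows of Dnmt3a (chr12:3806730-3806979, plus strand) and Dnmt3b (chr2:153649199-153649448, plus strand) held no E2F word. They are shown with GGGCGG, read on either strand, in capitals, 5 times for Dnmt3a and 3 times for Dnmt3b. The windows with the E2F word also held GGGCGG, 3 times for Uhrf1 and 2 times for Dnmt1, so this word does not set the genes apart. A GGGCGG word was found in 32.7% of all windows.
Dnmt3a: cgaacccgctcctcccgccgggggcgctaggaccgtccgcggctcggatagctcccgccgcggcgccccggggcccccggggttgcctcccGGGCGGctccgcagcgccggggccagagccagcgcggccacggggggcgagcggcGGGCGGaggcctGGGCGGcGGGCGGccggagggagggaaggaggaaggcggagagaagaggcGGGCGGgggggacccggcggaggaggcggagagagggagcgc
Dnmt3b: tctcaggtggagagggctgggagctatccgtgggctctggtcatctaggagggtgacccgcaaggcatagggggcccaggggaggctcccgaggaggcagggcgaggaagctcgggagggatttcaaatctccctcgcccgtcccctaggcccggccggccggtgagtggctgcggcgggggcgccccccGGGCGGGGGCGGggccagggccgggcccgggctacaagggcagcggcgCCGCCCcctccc
These windows were rich in CpG, the substrate of the enzymes themselves, with 38 CpG for Dnmt3a, 30 for Uhrf1 and 21 for Dnmt3b against a median of 6 over all windows. The CpG count of Tet2 was 51, above that of 99.9% of all windows, and that of Tet1 was 15. A match to a word is a description of the sequence and not a measured site, and the absence of one says only that these letters are not in the window.

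In unstimulated CD4+ T cells the most abundant transcript of the set was that of the reader Mbd2 and the least abundant that of Uhrf1. The mean level in control cells was 84.2 ± 7.81 RPKM (SD, n = 2) for Mbd2, and Tet3, Dnmt1 and Uhrf2 followed at 42.3, 30.3 and 25.0 RPKM. Dnmt3a at 13.8, Tet2 at 10.4, Tet1 at 5.60 and Dnmt3b at 3.56 RPKM came next. Uhrf1 was last at 1.18 ± 0.229 RPKM (SD, n = 2), a level above that of 11.8% of the genes tested. The order was the same in Cd offspring, and no neighbours in it overlapped in their libraries in either group. Resting cells thus held abundant transcript of the maintenance methyltransferase beside little of its recruiter, with 23.1 to 34.1 RPKM of Dnmt1 for each RPKM of Uhrf1 over the 4 unstimulated libraries.

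The first comparison asks how the set changes between cells lysed at 0 hours and cells cultured for 16 hours with anti-CD3/CD28 beads. No group was cultured for 16 hours without beads, so the effects of stimulation and of time in culture cannot be told apart. After 16 hours of stimulation, Uhrf1, Dnmt3a and Dnmt3b rose by more than 2-fold, Tet1 fell by more than 2-fold, and the other 5 genes changed by less than 1.5-fold in the fit. This held in control and in Cd offspring. At more than 2-fold and an adjusted p below 0.01 in limma, 4 of the 9 genes were called in control offspring, 3 higher and 1 lower, where 18.7% of all genes tested were called, 11.5% higher and 7.17% lower. The same 4 were called in Cd offspring, with a background of 18.6%, 11.4% higher and 7.24% lower. For all 9 genes the stimulated libraries did not overlap the unstimulated ones in either exposure group, and this was so for 83.1% of all genes tested in both.

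**Figure D1:**
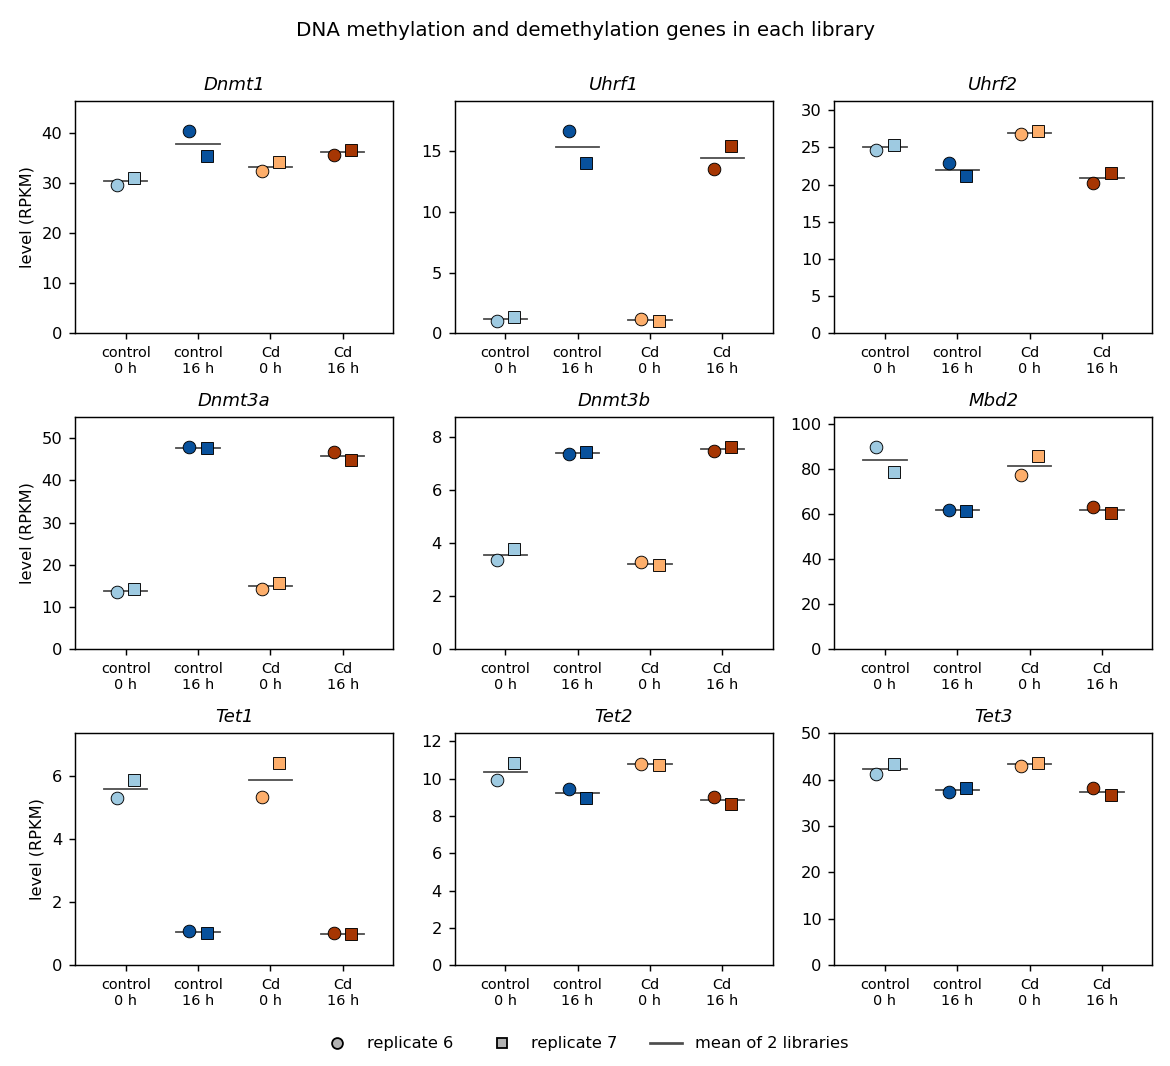
Level of each of the 9 genes (RPKM, vertical axes from 0, each with its own scale) in the 8 libraries, by group (horizontal axis). Circles are replicate 6, squares replicate 7 and lines the mean of 2 libraries. Uhrf1, Dnmt3a and Dnmt3b are high and Tet1 is low after 16 hours in both exposure groups, and the 2 exposure groups lie close together within each panel.

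Among the maintenance genes, Uhrf1 (chr17:56303337-56323486, plus strand, overlapping no other annotated gene; positions on mm10) had the largest change of the set. It stood at 1.02 and 1.34 RPKM in the unstimulated and at 16.7 and 14.1 RPKM in the stimulated libraries of control offspring, a log2 fold change of 3.60 ± 0.16 (SE, 12.1-fold, adjusted p = 1.49e-06 from limma). In Cd offspring it went from 1.16 and 1.0 RPKM to 13.5 and 15.4 RPKM, a log2 fold change of 3.63 ± 0.16 (SE, 12.4-fold, adjusted p = 1.53e-06 from limma). All 4 stimulated libraries were far above all 4 unstimulated ones, and the change was larger than that of 99.6% of the genes tested in control and 99.5% in Cd offspring.

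Dnmt1, the enzyme that Uhrf1 recruits, moved little. The gene (chr9:20907206-20959888, minus strand) holds the microRNA gene Mir7081. Its level was 29.6 and 31.0 RPKM before and 40.2 and 35.3 RPKM after stimulation in control offspring, a log2 fold change of 0.32 ± 0.07 (SE, adjusted p = 0.00559 from limma). That is 1.24-fold, and it was 0.15 on the log2 scale after quantile normalization, with an adjusted p of 0.111 from limma. In Cd offspring Dnmt1 stood at 32.4 and 34.1 RPKM before and 35.5 and 36.6 RPKM after stimulation, a log2 fold change of 0.12 with a 95% confidence interval from -0.05 to 0.28 (adjusted p = 0.179 from limma). The stimulated libraries were higher in both groups. The sign was not stable to scaling in Cd offspring, where it was -0.05 after quantile normalization. Dnmt1 exceeded Uhrf1 by 2.37 to 2.63 times after stimulation.

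Uhrf2 (chr19:30030430-30093726, plus strand) did not rise with its paralog. It stood at 24.7 and 25.3 RPKM before and 22.9 and 21.1 RPKM after stimulation in control offspring, and at 26.8 and 27.1 RPKM before and 20.2 and 21.6 RPKM after it in Cd offspring. The log2 fold change was -0.19 ± 0.06 (SE, adjusted p = 0.0295 from limma) in control and -0.37 ± 0.06 (SE, adjusted p = 0.00126 from limma) in Cd offspring, both short of 2-fold. The control value was -0.13 (adjusted p = 0.176 from limma) without control stimulated replicate 7, and the adjusted p in Cd offspring was 0.0127 without Cd stimulated replicate 6. With median-of-ratios scaling and quantile normalization the control value was -0.27 (adjusted p = 0.0092 from limma) and -0.32 (adjusted p = 0.00317). Uhrf2 was 18.8 to 27.1 times as abundant as Uhrf1 in the unstimulated libraries and 1.37 to 1.50 times as abundant in the stimulated ones.

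Both de novo methyltransferases rose. Dnmt3a (chr12:3801559-3914443, plus strand) stood at 13.5 and 14.2 RPKM before and 47.9 and 47.7 RPKM after stimulation in control offspring, a log2 fold change of 1.78 ± 0.06 (SE, 3.44-fold, adjusted p = 6.42e-07 from limma). In Cd offspring it went from 14.2 and 15.7 RPKM to 46.8 and 44.8 RPKM, a log2 fold change of 1.61 ± 0.06 (SE, 3.05-fold, adjusted p = 1.07e-06 from limma). With this rise Dnmt3a passed Dnmt1, Uhrf2 and Tet3 and became the second most abundant transcript of the set.

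Dnmt3b (chr2:153649411-153687730, plus strand) started lower and rose less. It went from 3.36 and 3.76 RPKM to 7.34 and 7.41 RPKM in control offspring, a log2 fold change of 1.03 ± 0.09 (SE, 2.05-fold, adjusted p = 4.27e-05 from limma). In Cd offspring it went from 3.29 and 3.15 RPKM to 7.47 and 7.61 RPKM, a log2 fold change of 1.20 ± 0.09 (SE, 2.30-fold, adjusted p = 1.99e-05 from limma). The groups did not overlap, but the control value lay close to the 2-fold threshold and dropped under it, to 0.95, without control unstimulated replicate 6. It was also under 2-fold with a pseudocount of 0.5 or 1 RPKM (0.96 and 0.88) and with median-of-ratios scaling or quantile normalization (0.96 and 0.93), with the direction unchanged.

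Inside the span of Dnmt3a lies Dnmt3aos, a lncRNA on the opposite strand (chr12:3859293-3862244, minus strand). It is among the genes the study singled out on these samples, so its direction is no independent evidence. Its level was 0.803 and 0.930 RPKM before and 2.14 and 2.93 RPKM after stimulation in control offspring, and 0.855 and 1.12 RPKM before and 2.79 and 2.35 RPKM after it in Cd offspring. The log2 fold change was 1.43 ± 0.22 (SE, adjusted p = 0.000743 from limma) in control and 1.30 ± 0.22 (SE, adjusted p = 0.00128 from limma) in Cd offspring. It rested on 20 to 85 reads in a library. The sources used here do not say whether the counting used strand, so reads of Dnmt3a and Dnmt3aos may not be fully told apart. The same limit holds for other annotated genes that overlap members. These are Gm31623 at Dnmt3a, Gm51805 at Tet1, B230319C09Rik and Mir6374 at Tet3, and Gm31671 at Mbd2.

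Of the Tet dioxygenases, Tet1 fell and the other 2 moved little. Tet1 (chr10:62804570-62887469, minus strand) stood at 5.31 and 5.89 RPKM before and 1.08 and 1.01 RPKM after stimulation in control offspring, a log2 fold change of -2.31 ± 0.14 (SE, 4.97-fold lower, adjusted p = 5.57e-06 from limma). In Cd offspring it went from 5.34 and 6.42 RPKM to 1.01 and 0.972 RPKM, a log2 fold change of -2.45 ± 0.14 (SE, 5.46-fold lower, adjusted p = 4.49e-06 from limma). All 4 stimulated libraries lay near 1 RPKM, and only 1.20% of the genes tested in control and 1.01% in Cd offspring had a lower log2 fold change.

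Tet2 (chr3:133463677-133545136, minus strand) stood at 9.93 and 10.8 RPKM before and 9.47 and 8.99 RPKM after stimulation in control offspring, and at 10.8 and 10.7 RPKM before and 9.02 and 8.66 RPKM after it in Cd offspring. Tet3 (chr6:83362373-83457208, minus strand), the most abundant of the family, stood at 41.1 and 43.4 RPKM before and 37.4 and 38.2 RPKM after stimulation in control offspring, and at 43.0 and 43.6 RPKM before and 38.2 and 36.7 RPKM after it in Cd offspring. The log2 fold change of Tet2 was -0.17 in control (adjusted p = 0.0802 from limma) and -0.28 in Cd offspring (adjusted p = 0.0109), and that of Tet3 was -0.16 (adjusted p = 0.0225) and -0.21 (adjusted p = 0.00704). All these differences were small beside that of Tet1, and their size moved with the scaling. After quantile normalization Tet3 was at -0.33 in control (adjusted p = 0.00105 from limma) and -0.39 in Cd offspring, and Tet2 at -0.28 (adjusted p = 0.0117) and -0.40 (adjusted p = 0.00219). With median-of-ratios scaling Tet3 in control offspring was at -0.24 (adjusted p = 0.00325 from limma) and Tet2 in Cd offspring at -0.34 (adjusted p = 0.00426). Tet2 in control offspring was at -0.10 without control unstimulated replicate 7.

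The reader Mbd2 fell by less than 1.5-fold and remained the most abundant of the set. It stood at 89.7 and 78.7 RPKM before and 62.0 and 61.3 RPKM after stimulation in control offspring, and at 77.2 and 85.9 RPKM before and 63.1 and 60.6 RPKM after it in Cd offspring. The log2 fold change was -0.45 ± 0.08 (SE, adjusted p = 0.0014 from limma) in control and -0.40 ± 0.08 (SE, adjusted p = 0.00261 from limma) in Cd offspring. At an adjusted p under 0.01 whatever the size, 6 of the 9 genes passed in control offspring, where 51.7% of all genes tested did. In Cd offspring 7 of 9 passed, where 52.5% of all genes tested did. Whether the set differed from this background was not tested. The smaller changes were not firm at that threshold. With 1 library left out, the highest adjusted p from limma was 0.0374 for Dnmt1 and 0.0104 for Mbd2 in control offspring, and 0.0572 for Tet3 and 0.0206 for Mbd2 in Cd offspring.

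**Figure D2:**
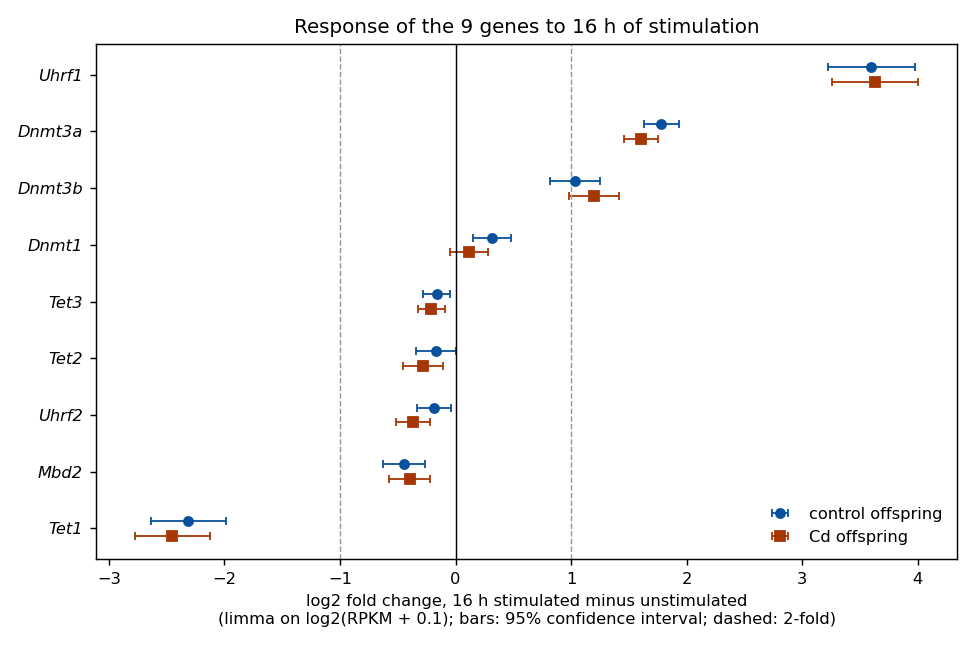
Log2 fold change of each gene for stimulated minus unstimulated cells (horizontal axis, limma on log2(RPKM + 0.1)), with circles for control and squares for Cd offspring and bars for the 95% confidence interval. Uhrf1, Dnmt3a and Dnmt3b lie to the right of 2-fold and Tet1 to the left, and the other 5 genes lie between the dashed lines in both exposure groups.

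The make-up of each enzyme family shifted with these changes. Summed over Dnmt1, Dnmt3a and Dnmt3b, the level was 47.7 ± 1.78 RPKM (SD, n = 2) in control unstimulated and 92.9 ± 3.58 RPKM (SD, n = 2) in control stimulated cells, and 51.4 ± 2.16 and 89.4 ± 0.554 RPKM in the corresponding Cd groups. Dnmt1 made up 63.5% ± 0.235 (SD, n = 2) of that sum in control unstimulated and 40.6% ± 2.19 (SD, n = 2) in control stimulated cells, while the share of Dnmt3a went from 29.0% ± 0.0853 to 51.5% ± 1.82. The most abundant methyltransferase transcript was thus Dnmt1 at rest and Dnmt3a after stimulation. In Cd offspring the share of Dnmt1 was 64.6% and 40.3% and that of Dnmt3a 29.1% and 51.2%.

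The Tet family changed less in its sum, 58.3 ± 2.67 RPKM (SD, n = 2) before and 48.0 ± 0.189 RPKM (SD, n = 2) after stimulation in control while Cd offspring had 59.9 RPKM before and 47.3 RPKM after it. Tet1 made up 9.61% ± 0.258 (SD, n = 2) of it before and 2.18% ± 0.114 (SD, n = 2) after stimulation in control cells, and 9.80% and 2.10% in Cd offspring. Tet3 made up most of the sum throughout (control offspring 72.6% before and 78.6% after stimulation, Cd offspring 72.2% before and 79.2% after it). These shares follow from the levels above and were not tested separately.

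**Figure D3:**
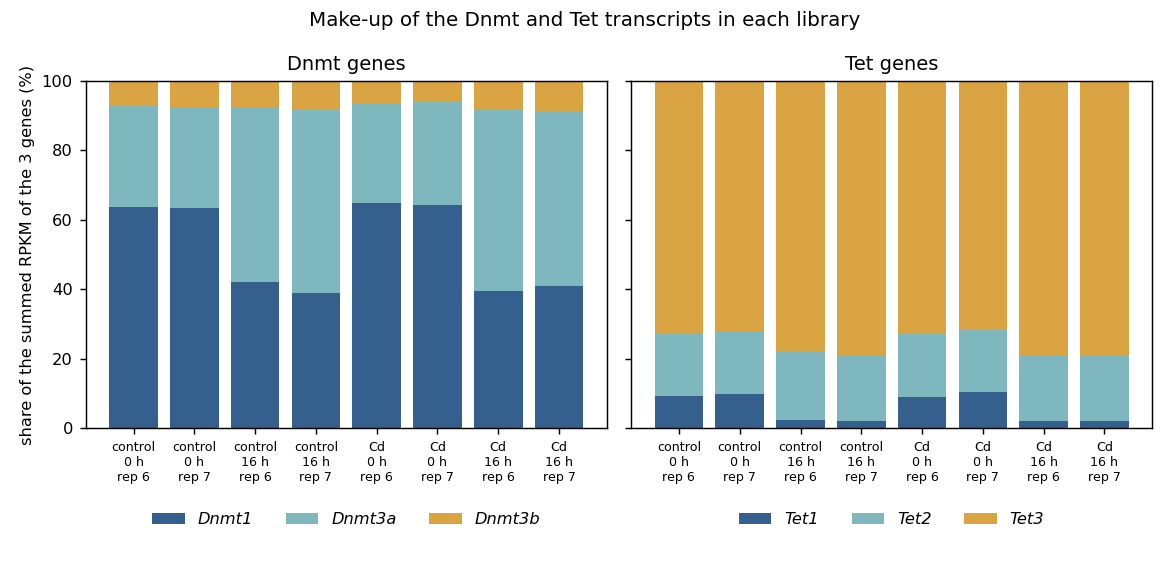
Share of each gene in the summed RPKM of its family (vertical axis, %) in each of the 8 libraries (horizontal axis), with the Dnmt genes on the left and the Tet genes on the right. Dnmt3a takes 51.5% of the Dnmt sum in control stimulated cells against 29.0% in control unstimulated cells, and the Tet1 share shrinks to 2.18%.

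After stimulation the order of levels in control cells was Mbd2 at 61.6, Dnmt3a at 47.8, Tet3 at 37.8, Dnmt1 at 37.8, Uhrf2 at 22.0, Uhrf1 at 15.4, Tet2 at 9.23, Dnmt3b at 7.38 and Tet1 at 1.05 RPKM. Tet3 and Dnmt1 overlapped in their libraries in control cells, and no other neighbours did. The same order held in Cd offspring, where Tet3 and Dnmt1 did not overlap. Uhrf1 had moved from the last to the sixth place and Tet1 from the seventh to the last.

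The second comparison asks whether parental Cd left these transcripts at another level in the offspring. No gene of the set was called. In unstimulated cells the log2 difference, Cd minus control, ran from -0.14 for Dnmt3b to 0.13 for Dnmt1, and by limma at an adjusted p under 0.05 0 of the 9 genes were called, where 113 genes or 0.896% of those tested were. At an unadjusted p under 0.05 the count in the set was also 0, against 13.9% of all genes, and limma voom on whole reads called 0 of the 9 and 211 of the 12605 genes tested. The libraries of Cd and control did not overlap for 4 of the 9 genes (Dnmt1, Dnmt3a and Uhrf2 higher, Dnmt3b lower in Cd), where this was so for 42.3% of all genes tested. The lowest adjusted p from limma in the set was 0.445, that of Dnmt1. The size of these differences moved with single libraries. Dnmt3b was at -0.22 without control unstimulated replicate 6 and -0.058 without replicate 7 of that group, and Dnmt3a, at 0.11 with all libraries, was at 0.18 without Cd unstimulated replicate 6 and 0.041 without replicate 7.

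In stimulated cells the log2 difference ran from -0.08 for Uhrf1 to 0.03 for Dnmt3b. Limma called 0 of the 9 genes and 0 of all genes tested (0%), limma voom called 0 of both, and at an unadjusted p under 0.05 the counts were 0 of the 9 and 3.28% of all genes. Dnmt3a and Tet1 were lower and Dnmt3b was higher in Cd without overlap, 3 of 9, where this was so for 36.7% of all genes tested.

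The difference in response between Cd and control offspring ran from -0.20 for Dnmt1 to 0.17 for Dnmt3b on the log2 scale. The interaction contrast in limma called 0 of the 9 genes at an adjusted p under 0.05, where 45 genes or 0.357% were called, and 0 of the 9 had an unadjusted p under 0.05 (10.6% of all genes), while limma voom called 0 of the 9 and 111 of the 12605 genes tested. The lowest adjusted p from limma was 0.516, that of Uhrf2. Dnmt1 was at -0.10 without control stimulated replicate 6 and -0.29 without replicate 7 of that group, Dnmt3b at 0.25 without control unstimulated replicate 6 and 0.090 without replicate 7, and Dnmt3a, at -0.17 with all libraries, at -0.10 without Cd unstimulated replicate 7. This contrast uses the same libraries as the comparisons above and is not independent of them. A p that misses the threshold does not show that the groups are alike, and the intervals give what these libraries allow. For Dnmt3a the 95% confidence interval of the Cd minus control difference was -0.04 to 0.26 in unstimulated and -0.21 to 0.09 in stimulated cells. For Dnmt1 it was -0.03 to 0.30 and -0.23 to 0.10, and for Dnmt3b -0.35 to 0.08 and -0.18 to 0.25. The widest intervals were those of Uhrf1 and Tet1, -0.49 to 0.26 and -0.46 to 0.29 for Uhrf1 and -0.26 to 0.39 and -0.40 to 0.25 for Tet1. None of the intervals reached a 2-fold difference.

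**Figure D4:**
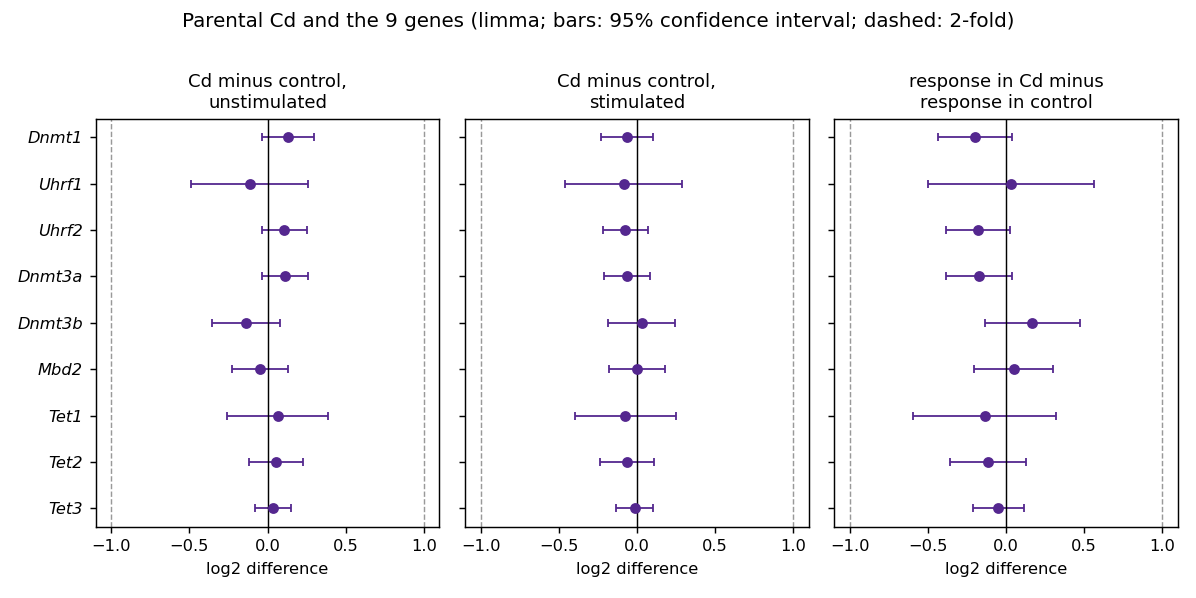
Log2 difference between Cd and control for each of the 9 genes in unstimulated cells (left) and stimulated cells (middle), and of their responses to stimulation (right), with bars for the 95% confidence interval and dashed lines at 2-fold. All 27 intervals include 0 and lie inside the 2-fold lines.

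Genes that work with the set were described from lists of partners, by the same rule and beside the median log2 fold change over all genes tested, which was 0.07 in control and 0.05 in Cd offspring. The shares called among all genes, given above as 11.5% higher and 7.17% lower in control offspring, are the background of each count. Of the partners of maintenance methylation, 3 of the 5 tested were called higher in both exposure groups and none lower, with a median of 1.33 in control and 1.19 in Cd offspring. Cdca7, which recruits the remodeller Hells to chromatin, had a log2 fold change of 3.76 (adjusted p = 2.45e-07 from limma) in control offspring, from 3.92 to 54.3 RPKM. Hells, a remodeller needed for methylation of nucleosomal DNA, had 2.77, from 3.43 to 24.0 RPKM, and Lig1, the replicative DNA ligase, 1.33, from 6.21 to 15.8 RPKM. Pcna, the sliding clamp, stood at 101 RPKM before and 102 RPKM after stimulation, a log2 fold change of 0.01.

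The partners of de novo methylation had 1 of 7 called, higher in both exposure groups, with a median of 0.49 in control and 0.39 in Cd offspring. It was Ezh2, the methyltransferase of lysine 27 of histone H3, with a log2 fold change of 1.79 in control offspring, from 13.3 to 46.3 RPKM. Dnmt3l, the inactive cofactor of the de novo enzymes in germ cells, was at 0 RPKM in all libraries. Of the 9 genes listed as further methyl-CpG readers none was called, with a median of -0.09 in control and -0.12 in Cd offspring. Whether each of them binds methylated CpG was not tested. Mbd3 of this list is also counted among the NuRD subunits, and Mbd4 among the demethylation partners. Of the 12 NuRD subunits, 1 was higher (Rbbp7, log2 fold change 1.18 in control offspring) and 1 lower (Chd3, -1.16), with a median of 0.35 in control and 0.32 in Cd offspring. A single gene in a list of this size is near the background share, as is the 1 call among the de novo partners and among the mitosis genes.

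Of the 15 genes tested from a list of demethylation partners, which holds base excision repair enzymes, the Gadd45 family, partners of the Tet enzymes and suppliers of their cosubstrate, 4 were called higher and 1 lower in both exposure groups, with a median of 0.30 in control and 0.09 in Cd offspring. Tdg, the glycosylase that excises oxidized methylcytosine, rose from 6.70 to 16.3 RPKM in control offspring, a log2 fold change of 1.27 (adjusted p = 4.28e-06 from limma). Ung, the uracil glycosylase, had a log2 fold change of 1.93 and Apex1, the abasic site endonuclease, 1.57. The fourth was Gadd45b with 1.05, while its relative Gadd45a fell from 12.2 to 1.83 RPKM with -2.69. With median-of-ratios scaling or quantile normalization 3 were higher and 2 lower in control offspring. The other glycosylases of the list were not called. Smug1 went from 2.75 to 5.57 RPKM in control offspring, just short of 2-fold (adjusted p = 0.000237 from limma), and Neil1 went the other way from 16.6 to 8.65 RPKM, a log2 fold change of -0.94 (adjusted p = 0.000421). Neil2 had 0.62 (adjusted p = 0.0754 from limma) and Mbd4 0.13 (adjusted p = 0.382) in control offspring. Their signs were opposite in Cd offspring, with -0.20 (adjusted p = 0.538 from limma) for Neil2 and -0.01 (adjusted p = 0.934) for Mbd4.

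Methyltransferases draw their methyl group from S-adenosylmethionine, and 3 of 8 genes of that cycle were called higher in control and 2 in Cd offspring, none lower. The median was 0.70 in control and 0.48 in Cd offspring. Ahcy, which clears the product S-adenosylhomocysteine, had a log2 fold change of 1.28 and Mtrr, methionine synthase reductase, 1.04 in control offspring. The third was Mat2a, which makes S-adenosylmethionine, with 1.04 in control and 0.72 in Cd offspring. Median-of-ratios scaling and quantile normalization each left 1 of the 8 called in either exposure group.

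The DNA replication genes are the setting in which Dnmt1 and Uhrf1 work. Of the 20 tested, 15 were called higher in control and 13 in Cd offspring and none lower, with a median of 1.40 and 1.27. Mcm5, Mcm6 and Mcm3, subunits of the replicative helicase, had log2 fold changes of 1.99, 1.95 and 1.78 in control offspring, and Prim1, the primase subunit, 1.43. Of the 6 mitosis genes tested, 1 was called higher, Top2a with 1.39 in control offspring, and Mki67 stood at 0.840 RPKM before and 0.386 RPKM after stimulation. In the comparisons of Cd with control and in the difference in response no gene of these lists was called.

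**Figure D5:**
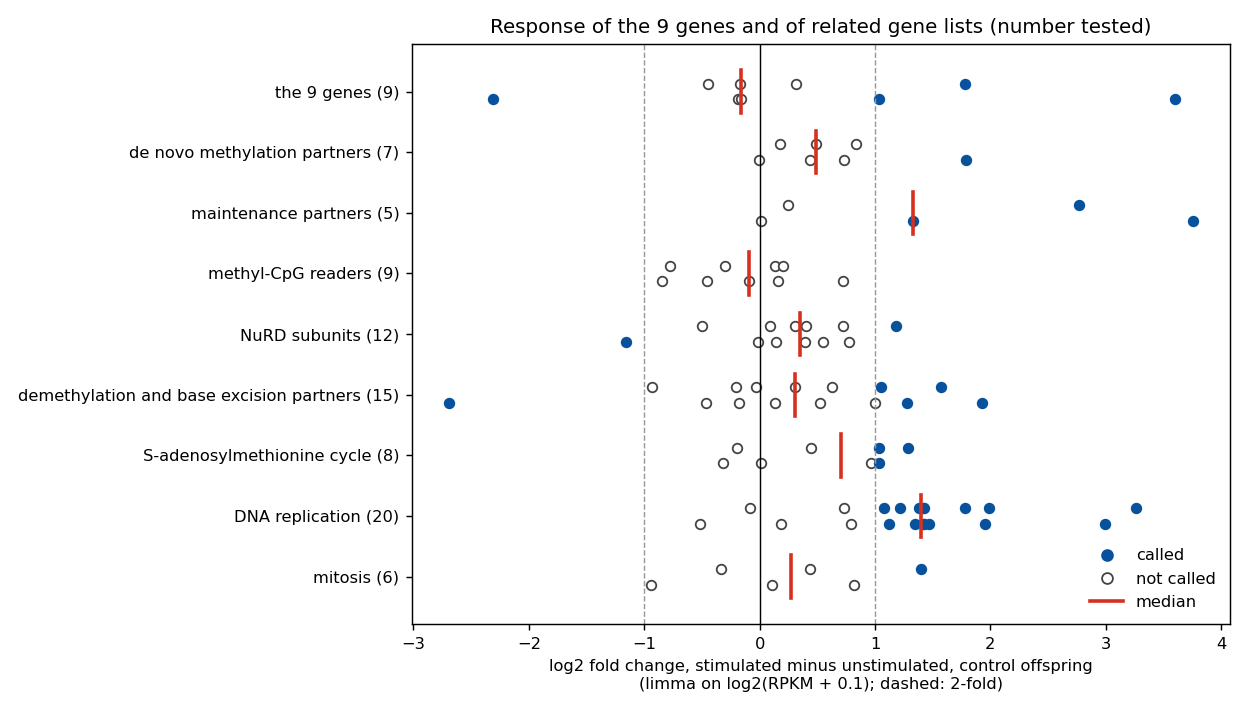
Log2 fold change for stimulated minus unstimulated cells of control offspring (horizontal axis, limma on log2(RPKM + 0.1)) for the 9 genes and the genes tested of 8 related lists. Filled points were called, open points were not, red bars are medians, and dashed lines mark 2-fold. The DNA replication list has its median at 1.40 with 15 of 20 called, and the list of methyl-CpG readers has none called.

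The 10 germline genes listed, which are known to be silenced by promoter methylation in somatic cells, all stayed under the level needed for testing. Mael, Sycp1, Asz1 and Slc25a31 were at 0 RPKM in all 8 libraries. The highest was Sycp3 at 0.266 RPKM before and 0.499 RPKM after stimulation in control offspring and at 0.293 and 0.433 RPKM in Cd offspring.

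Among the genes with a mean of at least 5 RPKM, those whose profile over the 8 libraries lay nearest to that of a member were listed as a description, by the root mean square difference of log2 values centred on the mean of each gene. For Uhrf1 these were Cish (0.128), Cdca7 (0.157) and Ybx3 (0.213). For Dnmt3a they were Septin11 (0.0291), Heatr1 (0.041) and Xpot (0.0426), and for Dnmt3b Slc35f2 (0.0509), Wdr18 (0.0524) and Zap70 (0.0541). For Tet1 they were Dnah8 (0.0622), Rab19 (0.097) and Igsf23 (0.0994). The nearest gene was Rbm12 for Dnmt1, Jmjd6 for Uhrf2, Znrf3 for Tet2, Smcr8 for Tet3 and Ptp4a2 for Mbd2, at 0.0195 to 0.0363.

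The labelled cell type and treatment were checked on marker genes. All 7 T cell markers were above 1 RPKM in every library, Cd4 at 212 to 315 RPKM and Trac at 649 to 938 RPKM. Their sum was 2843 to 3023 RPKM in unstimulated and 1946 to 2054 RPKM in stimulated libraries. The activation genes summed to 149 to 202 RPKM in unstimulated and 1165 to 1255 RPKM in stimulated libraries, and Irf4 was the most abundant of them after stimulation. The B cell marker Ms4a1 was at 0 in all libraries, while Cd79a stood at 2.87 to 4.73 RPKM. The 5 B cell genes summed to 3.12 to 3.76 RPKM in unstimulated and 4.19 to 4.89 RPKM in stimulated libraries, with Cd79a as the most abundant. The myeloid marker Cd14 was at 0 in all libraries and Lyz2 at most 0.0487 RPKM, and Cd8a was at most 0.16 RPKM beside Cd8b1 at 9.40 to 11.7 RPKM. The 3 NK genes summed to 4.79 to 6.47 RPKM in unstimulated and 0.323 to 0.590 RPKM in stimulated libraries, with Klrb1c as the most abundant and Ncr1 at most 0.0311 RPKM. The 5 myeloid genes summed to 1.88 to 2.06 RPKM and 0.416 to 0.597 RPKM, with Itgam as the most abundant. The NK and myeloid sums fell with stimulation as Tet1 did, and their part in its change was not tested. Foxp3, which marks regulatory T cells, had a mean of 4.96 RPKM before and 6.64 RPKM after stimulation in control offspring, and 4.6 RPKM before and 7.44 RPKM after it in Cd offspring. Selection of CD25- cells removes most regulatory T cells, and the part of those that remain in the results was not tested.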

How the data were processed

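RNA from 8 libraries of splenic CD4+ T cells, 2 in each of 4 groups taken from the sample labels, was sequenced by the authors, with alignment by subread on mm10 and featureCounts counting over RefSeq transcripts. Tool versions and the strand setting are not given in the sources used here. The deposited table holds log2 values, log2(RPKM + 1) + 0.0001, read from the values themselves, and the test planned for RPKM was run after back-transformation. Whole reads and library totals were worked out from how low values step, and the transcript lengths came out whole, within 0.0001, for 100% of 17794 genes. Genes with a mean of at least 0.5 RPKM were fitted as log2(RPKM + 0.1) with a mean for each of the 4 groups (limma 3.58.1 under R 4.3.3), a trend and Benjamini-Hochberg adjustment over 12605 genes. A fold change on this scale understates the change of low genes. An exact permutation test of 2 libraries against 2 cannot give a two-sided p below 0.333, so the spread was pooled over all 8 libraries. Scripts were tested on simulated data. Gene identifiers were matched to RefSeq (GRCm38.p6), 25275 of 27179, and plots were made with matplotlib 3.10.9.

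Named genes are the 9 members, Dnmt3aos, up to 4 genes of each list with the largest change among those called in both exposure groups at a mean of at least 5 RPKM, and the 3 nearest in profile. The others named from the lists (Pcna, Dnmt3l, Gadd45b, Smug1, Neil1, Neil2, Mbd4, Mat2a, Top2a, Mki67 and the germline genes) were chosen after their values were seen. The members and lists were chosen with earlier results of these data known. Alternatives were other pseudocounts, filters, scalings, a replicate block, no trend, only the libraries of a comparison, limma voom and each library left out in turn.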

Additional observations from a re-analysis of the deposited data

How the results depend on the processing

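Of 828 values recomputed under the alternatives, 801 kept their direction and their side of the threshold, 5 kept only their direction and 22 changed sign. Part of these values could not change direction. Other filters, the blocks, no trend, only the libraries compared and a left-out library of another group leave a log2 fold change as it was. The threshold is that of a call, so an uncalled gene such as Dnmt1 counted as kept even where its adjusted p crossed 0.01. At an adjusted p under 0.01 without the fold threshold, the count for stimulation was 7 in place of 4 in Cd and 6 in control offspring. After quantile normalization, which moved the median of all genes in the control stimulation comparison by -0.10, Dnmt1 in Cd offspring was -0.052 for stimulation, and with a pseudocount of 1 the difference in response of Uhrf1 was -0.011. The cause was not tested. Apart from the count without a fold threshold, 3 to 4 of the 9 genes were called for stimulation, the gene lost being Dnmt3b in control offspring.

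Leaving out 1 library at a time turned the sign of some small Cd differences, none of them called. On the log2 scale, in unstimulated cells they ran from -0.30 to 0.070 for Uhrf1, -0.066 to 0.19 for Tet1, -0.0095 to 0.12 for Tet2, -0.0041 to 0.074 for Tet3 and -0.14 to 0.049 for Mbd2. In stimulated cells they ran from -0.16 to 0.030 for Dnmt1, -0.20 to 0.037 for Uhrf1, -0.042 to 0.015 for Tet3 and -0.025 to 0.033 for Mbd2. The difference in response ran from -0.15 to 0.21 for Uhrf1 and -0.046 to 0.14 for Mbd2. A lone library left in a group was assumed to vary like the other groups.

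With the replicate number as a block, 4 of the 9 genes were called for stimulation in both exposure groups and 0 in the Cd comparisons. At an adjusted p under 0.01 of any size, Dnmt1 in control offspring (0.0116 from limma) and Tet3 in Cd offspring (0.0147) no longer passed with the block. The same-numbered libraries deviated together only weakly, with correlations of -0.0414 to 0.0635, so the numbers were not taken to pair samples.

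Counts over all genes were less stable. The 113 genes called for Cd in unstimulated cells became 65 without the filter, 14 without the trend, 211 by limma voom, 52 with only the libraries compared and 19 to 105 with 1 library left out. The 0 in stimulated cells became 9, 2 and 0 under the first 3 of these and at most 3 with 1 library left out. The 45 for the difference in response became 28, 4 and 111, then 25 with a block for exposure and number, and 2 to 63 with 1 library left out. The fewest reads behind a value of the 9 genes were the 67 of Uhrf1 in 1 unstimulated library.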
